A study of Mus musculus with 42 samples.

Results

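The hepatic growth hormone and IGF1 axis was described here by 10 genes out of 54446 genes counted in the liver. These are the receptors Ghr and Prlr, the transcription factors Stat5a and Stat5b, the secreted products Igf1 and Igfals, the feedback inhibitors Socs2 and Cish, and the IGF binding proteins Igfbp2 and Igfbp4. They were chosen by name from known biology, but with earlier results of these data known, so counts of members called are descriptions. All 10 were found by their Ensembl identifiers, and all 10 passed the filter on low counts. Their levels were measured by bulk RNA sequencing in 42 livers, 1 library per mouse, at 32 weeks.

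All 42 mice were female and carried the human APOE*3-Leiden transgene, which gives mice a more human-like lipoprotein metabolism. The chow group, 10 mice, stayed on maintenance chow as a healthy reference. The WTD group, 16 mice, was 8 to 14 weeks old at the start and received a Western-type diet with 15% cocoa butter, 40.5% sucrose and 1% cholesterol, first for a run-in of 3 weeks and then up to week 32. The atorvastatin group, also 16 mice, had the same age, run-in and diet, with atorvastatin mixed into the food from week 0 at 3.0 mg/kg/day and from week 5 at 4.5 mg/kg/day. From week 22 the diet of both WTD-fed groups held 0.05% sodium cholate. Chow thus differed from WTD in the whole diet, cholate included, and single components cannot be told apart. The mouse labels begin with AZ# in the chow group and with Gen# in both WTD-fed groups, and their meaning is not given. Any difference tied to these label series cannot be told apart from the diet. No males were sequenced, and the feeding state and time of day at the endpoint are not given in the sources used here.

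Between 15661381 and 36224054 read pairs per mouse were assigned to genes, and levels are given as CPM, counts scaled to a common library size and corrected between libraries by TMM. In 9 low-capture libraries, 3 from chow, 5 from WTD and 1 from atorvastatin mice, over 20% of the genes at 1 to 2 CPM had no count. Members' calls and list counts were also computed without these 9.

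Growth hormone binds its receptor on hepatocytes and activates JAK2, which phosphorylates STAT5. STAT5 then enters the nucleus and induces Igf1 and Igfals, whose proteins circulate together in a complex with an IGF binding protein, and it also induces Socs2 and Cish, which dampen the receptor signal. Prolactin acts on the related receptor Prlr through the same STAT5 factors. In rodents the pulsatile or more continuous secretion of growth hormone sets much of the sex difference of the liver transcriptome. All of these values are transcripts: neither growth hormone in plasma nor phosphorylated STAT5 was analysed here.

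STAT5 is known to bind the palindrome TTCNNNGAA. Windows from 250 bases before to 50 bases after RefSeq transcript starts (GRCm38.p6) were available for 9 members, the exception being Socs2. They held this motif in 4 of 17 windows, belonging to Cish, Igfals and Prlr, as compared to 8.30% of all 32851 windows. The palindrome reads the same on both strands. The stretches around the matches are shown on the plus strand, with the motif in capitals, since these are the members whose promoter letters carry the element of the pathway's own transcription factor. Their order below is Cish at chr9:107296654-107296683, Igfals at chr17:24877598-24877627, Igfals at chr17:24878163-24878192 and Prlr at chr15:10223786-10223815.
Cish: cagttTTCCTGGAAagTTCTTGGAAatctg
Igfals: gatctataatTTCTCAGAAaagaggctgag
Igfals: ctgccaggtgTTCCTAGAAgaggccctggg
Prlr: gcaaaatgagTTCTAGGAAtaagggatatc
The Cish stretch held 2 motifs, which began at bases 1 and 12 of the transcript. The Igfals motifs began 236 and 58 bases before different starts of that gene, and the Prlr motif 110 bases before one of its starts. These are matches of letters and were not tested for binding.

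As compared to chow-fed mice, WTD-fed mice were lower in 7 of the 10 members and higher in 0. They were Ghr, Prlr, Stat5b, Igf1, Igfals, Igfbp2 and Igfbp4. Among all 15574 genes tested, 33.5% were called at an edgeR adjusted p under 0.01, 17.5% as higher and 16% as lower. The median log2 fold change was -0.67 over the members and 0.03 over all genes. These levels are shares of all counted mRNA, and in bulk liver fewer cells of a type and less RNA per cell cannot be told apart. When the libraries were scaled to hepatocyte markers instead, as described further on, Prlr and Igfals were still lower. Stat5b and Igfbp4 were higher, and Ghr, Igf1 and Igfbp2 did not pass. On that scale 64.5% of all genes were called higher and 1.87% lower. The median gene was at 0.88, above Stat5b (0.48) and Igfbp4 (0.29).

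With atorvastatin on top of WTD, 2 of the 10 members, the receptors Ghr and Prlr, were higher than on WTD alone and 0 were lower, against a background of 7.1% of all genes called, 4.84% as higher and 2.26% as lower. The median log2 fold change was 0.17 over the members and 0.00 over all genes. Of all calls in this comparison 68.2% were higher, a split that moved to 54.9% with RLE scaling, 50.6% with DESeq2 and 52.8% when only these groups were fitted. Without the 9 low-capture libraries 4 members were higher, Igfals and Igfbp4 being added, where 10.5% of all genes were called. Hepatocyte markers also rose, 9 of 12. With libraries scaled to them neither receptor passed (Ghr 0.02, edgeR adjusted p = 0.75, and Prlr 0.34, edgeR adjusted p = 0.021). On that scale 4 members were lower, where 37.3% of all genes were called lower and 0.52% higher (median log2 fold change -0.45).

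As compared to chow, atorvastatin-treated mice were lower in 5 members, Ghr, Igf1, Igfals, Igfbp2 and Igfbp4, and higher in 0, where 25% of all genes were called, 14.2% as higher and 10.7% as lower. Scaled to hepatocyte markers, Ghr, Igf1 and Igfbp4 did not pass, and Igfals and Igfbp2 were still lower. On that scale 35.6% of all genes were called higher and 2.16% lower. The 3 comparisons share groups of mice and are not independent of each other.

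**Figure D1:**
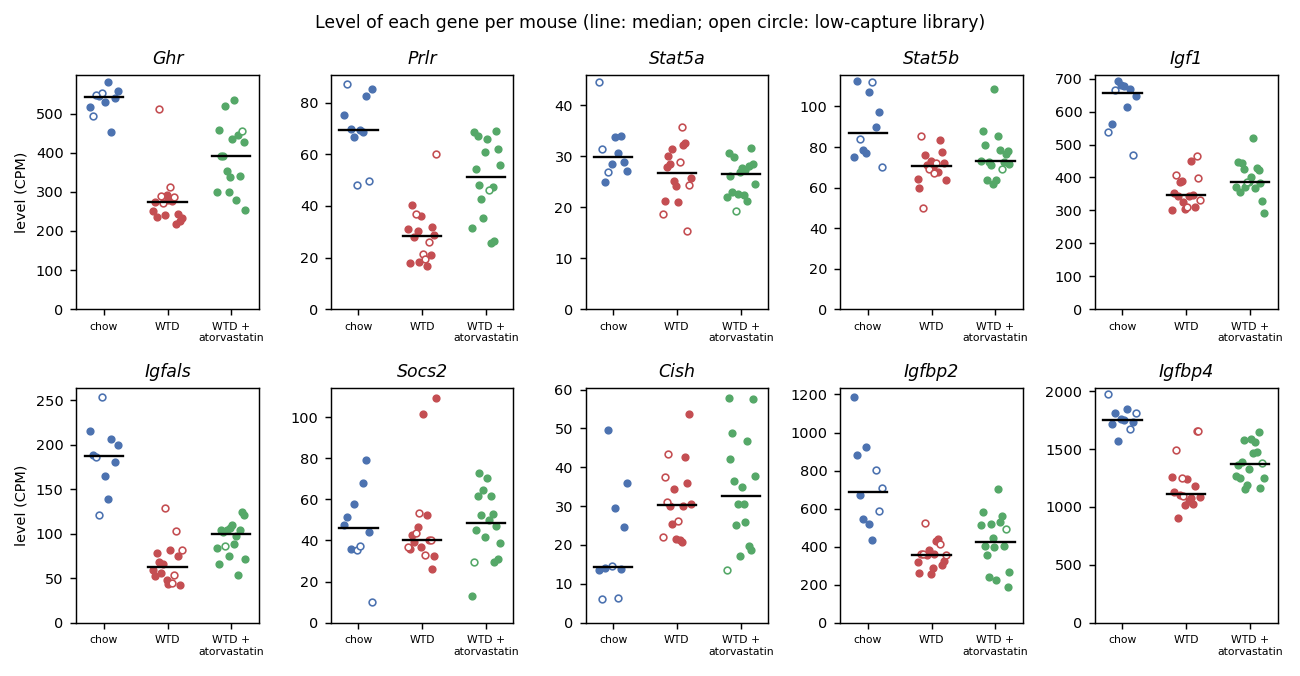
Level of each member (CPM, linear scale) in each of the 42 mice by group, with 1 point per mouse and a line at the group median. The 16 WTD mice lie below all 10 chow mice for Igf1, while Socs2 spreads over the same range in the 3 groups.

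**Figure D2:**
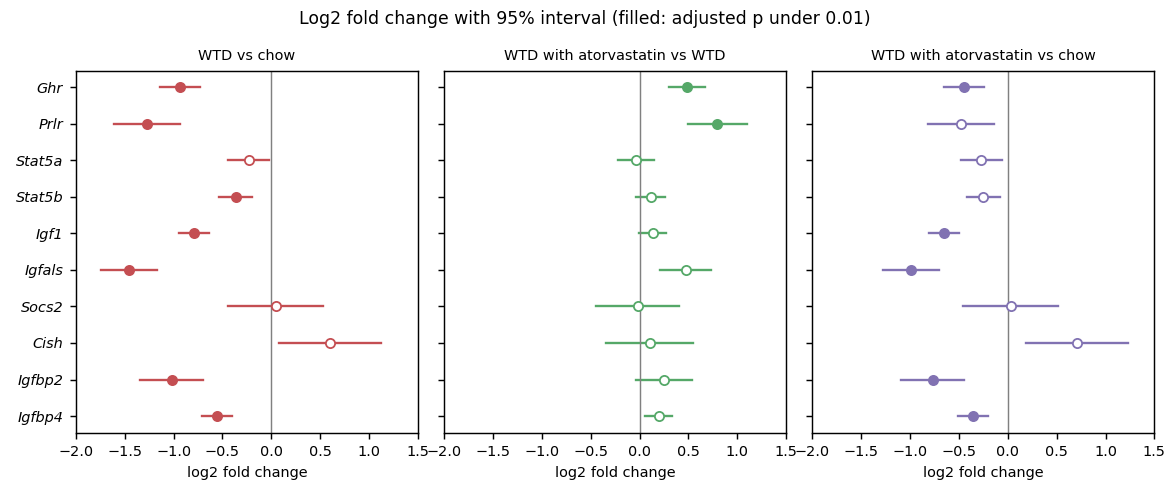
Log2 fold change of each member in the 3 comparisons, with approximate 95% intervals from the standard error and filled points for an edgeR adjusted p under 0.01. Igfals has the lowest WTD against chow value, -1.46, and Ghr and Prlr have the only filled points of atorvastatin against WTD.

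Ghr, on chromosome 15 (GRCm38 chr15:3317760-3583492, minus strand, ENSMUSG00000055737.12), encodes the growth hormone receptor. It ran from 453 to 581 CPM on chow with a median of 543, from 217 to 512 on WTD with a median of 273, and from 252 to 535 with atorvastatin with a median of 391. All but 1 of the 16 WTD mice lay below the lowest chow mouse, and 15 of 16 atorvastatin mice lay above the WTD median, with wide overlap between the WTD-fed groups. Ghr was thus 1.92-fold lower on WTD than on chow (log2 fold change -0.94, SE 0.10, edgeR adjusted p = 9.8e-11). Atorvastatin-treated mice were 1.40-fold higher than WTD-fed mice (0.49, SE 0.09, edgeR adjusted p = 0.00022). They remained 1.37-fold lower than chow-fed mice (-0.45, SE 0.11, edgeR adjusted p = 0.00050).

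Prlr, the prolactin receptor, on the same chromosome (chr15:10177238-10349180, plus strand, ENSMUSG00000005268.20), is known to be more abundant in female than in male mouse liver. On chow it ran from 48.3 to 87.3 CPM (median 69.5), on WTD from 16.8 to 60.1 (median 28.3) and with atorvastatin from 25.6 to 68.9 (median 51.3). The WTD and chow groups overlapped by a single WTD mouse, and 6 of 16 atorvastatin mice lay above the highest WTD mouse. Prlr fell 2.42-fold with WTD (log2 fold change -1.27, SE 0.17, edgeR adjusted p = 3.7e-08) and was 1.74-fold higher with atorvastatin than with WTD alone (0.80, SE 0.15, edgeR adjusted p = 0.00033). Between atorvastatin and chow the log2 difference of -0.48 (SE 0.17) did not pass (edgeR adjusted p = 0.027). A same-strand gene model, Gm21973, shares 203 exonic bases with Prlr, 1.32% of its exons, and read pairs there may have been left uncounted as ambiguous.

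The WTD mouse nearest to chow was replicate 15 for each receptor, with 512 CPM of Ghr and 60.1 CPM of Prlr. It was also the highest WTD mouse for Igf1, Igfals and Igfbp2, and the lowest for Stat5a. Its library is among the 9 low-capture ones, with 21.9% of weakly expressed genes at 0. Without it, the atorvastatin against WTD log2 fold changes were 0.57 for Ghr and 0.90 for Prlr.

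Stat5b and Stat5a are neighbouring genes on chromosome 11 that encode the closely related transcription factors downstream of both receptors, Stat5b being the main form in liver. Per kilobase of exon, the chow median was 15.7 CPM for Stat5b and 4.17 CPM for Stat5a. Stat5b (chr11:100780731-100850724, minus strand, ENSMUSG00000020919.11) ran from 70.4 to 113 CPM on chow (median 87.0), from 49.8 to 85.6 on WTD (median 70.7) and from 61.6 to 108 with atorvastatin (median 73.0). Every WTD mouse lay below the chow median, but only 7 of 16 lay below the lowest chow mouse. The fall with WTD was 1.29-fold (log2 fold change -0.37, SE 0.08, edgeR adjusted p = 0.00032). Atorvastatin against WTD gave 0.11 (SE 0.07, edgeR adjusted p = 0.37), with an approximate 95% interval from -0.03 to 0.26, and atorvastatin against chow gave -0.25 (edgeR adjusted p = 0.017), which passed in 2 of 10 alternative analyses.

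Stat5a (chr11:100859351-100885169, plus strand, ENSMUSG00000004043.14) did not pass in any of the 3 comparisons, nor in any of the 10 alternative analyses of each at an adjusted p under 0.01. At a threshold of 0.05 it passed between atorvastatin and chow. Its levels were 25.0 to 44.5 CPM on chow (median 29.8), 15.4 to 35.7 on WTD (median 26.7) and 19.2 to 31.5 with atorvastatin (median 26.5). The groups overlapped broadly. The log2 difference was -0.23 between WTD and chow (SE 0.11, edgeR adjusted p = 0.077), -0.04 between atorvastatin and WTD (edgeR adjusted p = 0.88) and -0.27 between atorvastatin and chow (edgeR adjusted p = 0.046).

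Igf1, the growth factor whose circulating form comes largely from the liver (chr10:87858265-87937042, plus strand, ENSMUSG00000020053.18), was the only member whose chow and WTD groups did not overlap, where 5.83% of all genes did not. Chow mice ranged from 469.8 to 693 CPM (median 656) and WTD mice from 299.9 to 465.8 (median 346), with atorvastatin mice from 293 to 519 (median 386). The fall with WTD was 1.73-fold (log2 fold change -0.79, SE 0.08, edgeR adjusted p = 3.2e-12). Igf1 did not pass between atorvastatin and WTD, at 0.14 (SE 0.07, edgeR adjusted p = 0.22), although 14 of 16 treated mice lay above the WTD median. The approximate 95% interval of that difference reached from -0.00072 to 0.27, and a rise of the size seen in Ghr, 0.49, lay outside it. Atorvastatin-treated mice stayed 1.57-fold below chow (-0.65, SE 0.08, edgeR adjusted p = 1.8e-09), with 15 of 16 below the lowest chow mouse. No member had groups without overlap in the other comparisons, which 0.00642% of all genes had between atorvastatin and WTD and 4.37% between atorvastatin and chow.

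Igfals encodes the acid labile subunit, which binds IGF1 and an IGF binding protein in plasma and lengthens the life of IGF1 there (chr17:24865997-24882010, plus strand, ENSMUSG00000046070.8). Of the 10 members it had the lowest WTD against chow value. It ran from 121 to 254 CPM on chow (median 188), from 42.5 to 129 on WTD (median 62.5) and from 53.3 to 125 with atorvastatin (median 99.6). Only replicate 15 of the WTD mice, at 129 CPM, reached the chow range. The fall was 2.75-fold with WTD (log2 fold change -1.46, SE 0.15, edgeR adjusted p = 2.5e-11) and 1.98-fold for atorvastatin against chow (-0.99, SE 0.15, edgeR adjusted p = 5.4e-07).

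Between atorvastatin and WTD, Igfals lay near the threshold. The log2 difference was 0.47 (SE 0.13, edgeR adjusted p = 0.012), and 15 of 16 treated mice lay above the WTD median while none exceeded the highest WTD mouse. It passed in 5 of 10 alternative analyses and in 8 of 42 that left out 1 mouse. Without WTD replicate 15 it was 0.56 (edgeR adjusted p = 0.00056), and without all low-capture libraries 0.63 (edgeR adjusted p = 0.00030).

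Socs2 and Cish encode SH2-domain proteins of the same family, known as targets and inhibitors of growth hormone and cytokine signals through STAT5. Unlike the receptors, Igf1 and Igfals, neither was called in any of the 3 comparisons. Socs2 (chr10:95385362-95417180, minus strand, ENSMUSG00000020027.18) ran from 9.96 to 79.4 CPM on chow (median 45.9), from 26.3 to 109 on WTD (median 40.2) and from 12.7 to 73.0 with atorvastatin (median 48.3). These ranges overlap, and the spread within groups was wide, with coefficients of variation of 41.4%, 48.7% and 35.0%. The WTD against chow log2 difference was 0.05 (SE 0.25, edgeR adjusted p = 0.90) with an approximate 95% interval from -0.44 to 0.53, so a fall as large as that of Ghr or Igf1 lay outside it. The sign of this value turned without the low-capture libraries (-0.10). Atorvastatin against WTD gave -0.02 (edgeR adjusted p = 0.98) and atorvastatin against chow 0.03 (edgeR adjusted p = 0.95), and these signs also turned in some of the alternatives.

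Cish (chr9:107296026-107302784, plus strand, ENSMUSG00000032578.7) was the member that varied most between chow mice. Its levels ran from 6.00 to 49.6 CPM on chow (median 14.3), from 20.7 to 53.8 on WTD (median 30.3) and from 13.6 to 57.9 with atorvastatin (median 32.7). All 16 WTD mice and 15 of 16 atorvastatin mice lay above the chow median, but most lay within the chow range. The coefficient of variation was 67.2% on chow and 29.6% on WTD. The log2 difference was 0.60 for WTD against chow (SE 0.27, edgeR adjusted p = 0.063), 0.70 for atorvastatin against chow (SE 0.27, edgeR adjusted p = 0.036) and 0.10 for atorvastatin against WTD (edgeR adjusted p = 0.86). Both differences from chow depended on which mice were kept. Without the highest chow mouse, replicate 10, WTD against chow was 0.85 (edgeR adjusted p = 0.0068) and atorvastatin against chow 0.95 (edgeR adjusted p = 0.0035). Without the low-capture libraries they were 0.28 (edgeR adjusted p = 0.42) and 0.45 (edgeR adjusted p = 0.18).

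Igfbp2 and Igfbp4 encode secreted proteins that bind IGFs, and Igfbp4 is known mainly to hold IGFs back from their receptor. Per kilobase of exon they were the most abundant members on chow, with medians of 397 CPM for Igfbp4 and 373 CPM for Igfbp2, ahead of Igf1 at 66.3, Ghr at 59.9 and Igfals at 59.3. Igf1, Ghr and Igfals overlapped on that scale, and so did Igfbp4 and Igfbp2. At the low end were Socs2 at 4.81, Prlr at 4.53, Stat5a at 4.17 and Cish at 2.23, which also overlapped. On WTD the same 5 genes led in the order Igfbp4 at 253, Igfbp2 at 194, Igf1 at 34.9, Ghr at 30.1 and Igfals at 19.7, and Prlr was lowest at 1.84.

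Igfbp2 (chr1:72824503-72852474, plus strand, ENSMUSG00000039323.18) ran from 437 to 1185 CPM on chow (median 689), from 254 to 522 on WTD (median 358) and from 188 to 703 with atorvastatin (median 424). It was 2.03-fold lower on WTD than on chow (log2 fold change -1.02, SE 0.16, edgeR adjusted p = 1.5e-06), with 14 of 16 WTD mice below the lowest chow mouse. The treated mice spanned most of the WTD range and beyond it on both sides, 4 above its highest and 3 below its lowest mouse. Their difference from WTD of 0.25 (SE 0.15) did not pass (edgeR adjusted p = 0.30), and from chow they were 1.70-fold lower (-0.77, SE 0.16, edgeR adjusted p = 0.00022).

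Igfbp4 (chr11:99041244-99054392, plus strand, ENSMUSG00000017493.12) was the least variable member on chow, at 1573 to 1976 CPM (median 1753), with 905 to 1661 on WTD (median 1115) and 1152 to 1644 with atorvastatin (median 1371). All 16 WTD mice were below the chow median and 14 were below the lowest chow mouse. It fell 1.47-fold with WTD (log2 fold change -0.55, SE 0.08, edgeR adjusted p = 6.1e-08) and was 1.28-fold lower with atorvastatin than on chow (-0.36, SE 0.08, edgeR adjusted p = 0.00029). Each of the 16 treated mice lay above the WTD median, and the difference of 0.20 (SE 0.07) missed the threshold (edgeR adjusted p = 0.053). Without WTD replicate 15 it was 0.23 (edgeR adjusted p = 0.0084), and without the low-capture libraries 0.33 (edgeR adjusted p = 0.00038).

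Other genes of growth hormone signalling, a list of 20 adaptors, kinases, phosphatases and regulators, moved both ways with WTD. Of these, 7 rose and 4 fell (median log2 fold change 0.19), where 17.5% of all genes were called higher and 16% lower. Jak2, the kinase bound to the receptor, was higher in WTD-fed mice (log2 fold change 0.57), and Irs1 and Irs2, adaptors shared with the insulin receptor, were lower (-0.52 and -0.68). These 3 genes were named for their place in the pathway after their values were seen.

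The smallest p in that list belonged to Sirpa, a membrane protein abundant on macrophages. It rose from a chow median of 38.3 CPM to 239 on WTD (log2 fold change 2.70, SE 0.13, edgeR adjusted p = 1.0e-22). Its chow and WTD groups did not overlap, as for 5.83% of all genes. Lepr, the leptin receptor, rose from a median of 3.41 to 28.2 CPM (3.15, SE 0.34, edgeR adjusted p = 3.3e-10). Ptpn1, a phosphatase known to act on JAK2 and the insulin receptor, rose from 37.0 to 60.7 CPM (0.81, SE 0.10, edgeR adjusted p = 6.6e-10). Atorvastatin against WTD gave 2 calls in this list, Sirpa lower (-0.57, edgeR adjusted p = 9.1e-05) and Hnf4a, a hepatocyte transcription factor, higher (0.33, edgeR adjusted p = 0.00064). Among all genes 7.1% were called in that comparison. Atorvastatin against chow gave 8 higher and 1 lower, where 14.2% of all genes were called higher and 10.7% lower. Without the low-capture libraries the counts for WTD against chow were 9 higher and 4 lower. For atorvastatin against WTD they were 4 higher and 2 lower, and for atorvastatin against chow 8 higher and 0 lower. In these 3 fits 37.2%, 10.5% and 29% of all genes were called. Sirpa, Lepr and Ptpn1 also had the smallest p between atorvastatin and chow (2.13, 2.92 and 0.52), and Ptpn1 did not pass between atorvastatin and WTD (-0.29, edgeR adjusted p = 0.013).

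Of 15 further genes of the IGF system, receptors, binding proteins, proteases and their regulators, 13 passed the filter, and Igf2 and Pappa2 did not. With WTD 4 rose and 2 fell (median 0.49), where 17.5% of all genes were called higher and 16% lower. Igfbp7, a secreted protein of the extended binding protein family that binds IGFs weakly, rose from a median of 98.4 to 294 CPM (log2 fold change 1.44, SE 0.11, edgeR adjusted p = 9.5e-16), and was lower again with atorvastatin (-0.40, SE 0.09, edgeR adjusted p = 0.0017). Insr, the insulin receptor, fell from 132 to 86.7 CPM (-0.57, SE 0.09, edgeR adjusted p = 2.5e-07). Igf2r, which clears IGF2 to lysosomes, rose from 38.6 to 58.5 CPM (0.57, SE 0.09, edgeR adjusted p = 1.1e-06). Igfbp3, the main partner of IGF1 and the acid labile subunit in plasma, passed between atorvastatin and chow, with medians of 40.9 and 28.3 CPM (0.82, SE 0.18, edgeR adjusted p = 0.00032). The 13 genes gave 4 higher and 2 lower calls in that comparison and 1 lower call between atorvastatin and WTD. Among all genes 14.2% were called higher and 10.7% lower in the former, and 2.26% lower in the latter. Grb10, an adaptor that dampens insulin and IGF1 receptor signals, did not pass between atorvastatin and WTD (-0.56, SE 0.17, edgeR adjusted p = 0.016). With the low-capture libraries left out, WTD against chow gave 6 higher and 1 lower, and atorvastatin against chow 5 higher and 2 lower. Of all genes, 37.2% and 29% were called there.

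A further readout of the axis is the group of liver genes whose sex difference is known to follow growth hormone. Of 14 genes known to be higher in female liver, 12 were lower in WTD-fed than in chow-fed mice and 0 higher. Their median log2 fold change was -1.72, and 16% of all genes were called lower. With atorvastatin 8 of the 14 were higher than on WTD and 0 lower (median 1.23), and 4.84% of all genes were called higher. As compared to chow 5 remained lower (median -0.60), and 10.7% of all genes were called lower. Without the low-capture libraries the counts were 14, 11 and 6, with 37.2%, 10.5% and 29% of all genes called in either direction. Values of these genes with libraries scaled to hepatocyte markers were not examined. These lists were chosen with earlier results of these data known, so the counts are descriptions.

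A1bg, a plasma glycoprotein, had the smallest p in this group: its median was 844 CPM on chow, 12.7 on WTD and 56.9 with atorvastatin, and the WTD range of 1.16 to 43.1 lay far below the chow range. It was 83.4-fold lower on WTD than on chow (log2 fold change -6.38, SE 0.50, edgeR adjusted p = 9.0e-14) and 5.52-fold higher with atorvastatin than on WTD (2.47, SE 0.41, edgeR adjusted p = 7.4e-05). Cyp2b9, a cytochrome P450, had medians of 607, 157 and 345 CPM on chow, WTD and atorvastatin, and fell 3.44-fold with WTD (-1.78, SE 0.18, edgeR adjusted p = 5.3e-11). Sult3a1, a sulfotransferase, had medians of 121, 0.137 and 1.06 CPM, and atorvastatin-treated mice remained 34.2-fold below chow (-5.09, SE 0.66, edgeR adjusted p = 6.4e-08). Cyp3a41a and Cyp3a44, cytochromes of a female-biased cluster, had the smallest p between atorvastatin and WTD. Their medians were 125, 2.83 and 62.9 CPM for Cyp3a41a (atorvastatin against WTD 3.59, SE 0.59, edgeR adjusted p = 6.1e-05) and 48.6, 1.29 and 14.2 CPM for Cyp3a44 (3.27, SE 0.55, edgeR adjusted p = 7.3e-05). Both belong to a family of near-identical copies, so the counts of each are uncertain where read pairs could fit several copies.

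Genes known to be higher in male liver moved both ways. Of 12 such genes 8 passed the filter, and with WTD 1 rose and 4 fell (median -0.81). For comparison, 17.5% of all genes were called higher and 16% lower. Mup20, a major urinary protein of a multigene family, was the one that rose, from a median of 74.0 CPM to 524 on WTD, and with atorvastatin its median was 94.6 CPM (atorvastatin against WTD -1.65, SE 0.35, edgeR adjusted p = 0.00097). Serpina1e, a serine protease inhibitor with close paralogs, fell from 139 to 25.8 CPM (-3.60, SE 0.38, edgeR adjusted p = 2.5e-10). Slco1a1, an organic anion transporter, fell from 11.0 to 0.406 CPM (-5.47, SE 0.80, edgeR adjusted p = 3.0e-07), and Cyp7b1, a hydroxylase of oxysterols, from 37.1 to 18.7 CPM (-1.09, SE 0.19, edgeR adjusted p = 3.6e-06). In atorvastatin against chow 0 were higher and 4 lower, Selenbp2 among them (-1.07, SE 0.22, edgeR adjusted p = 0.00015). There 14.2% of all genes were called higher and 10.7% lower. Between atorvastatin and WTD, Cyp2d9 (-0.67, edgeR adjusted p = 0.016) and Elovl3 (1.97, edgeR adjusted p = 0.048) did not pass. The counts were the same without the low-capture libraries.

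**Figure D3:**
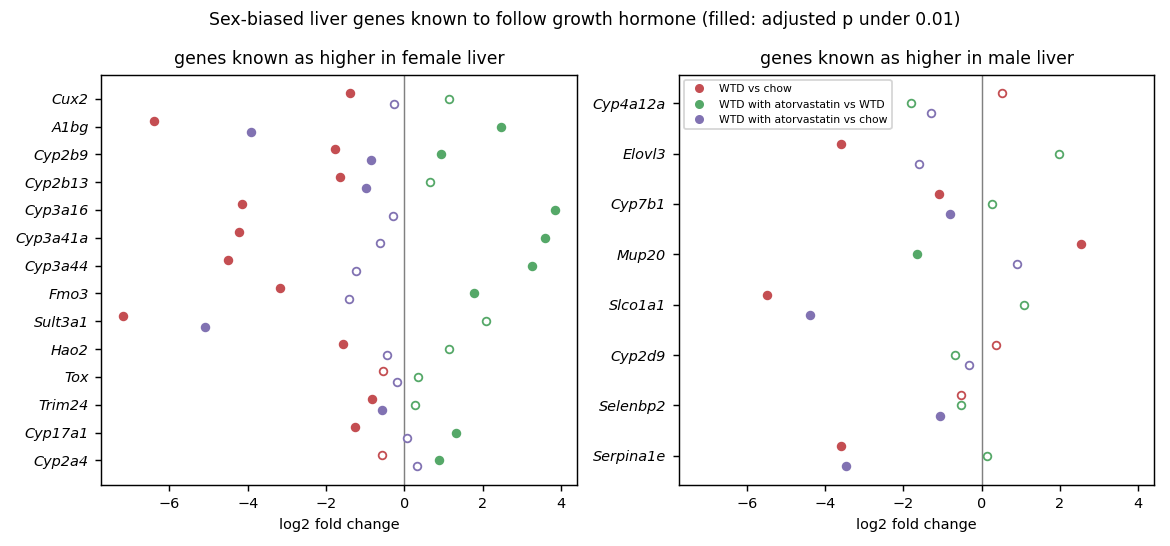
Log2 fold change of each tested gene of the female-biased and male-biased lists in the 3 comparisons, with filled points for an edgeR adjusted p under 0.01. All 14 female-biased genes lie below 0 for WTD against chow and above 0 for atorvastatin against WTD, and the 8 male-biased genes lie on both sides of 0.

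Cell type markers moved with the diet as well. Among all genes, 17.5% were called higher and 16% lower with WTD, and 4.84% and 2.26% between atorvastatin and WTD. All 12 hepatocyte markers, which begin with Alb and Ttr, fell with WTD, and their summed level was 114917 to 170672 CPM on chow, 56588 to 113696 on WTD and 68401 to 138171 with atorvastatin. Of these 12, 9 were higher with atorvastatin than on WTD. The 12 macrophage markers, beginning with Cd68 and Adgre1, gave 10 higher calls with WTD, and their sum was 429 to 652 CPM on chow, 2464 to 4538 on WTD and 1788 to 3186 with atorvastatin. With atorvastatin 1 of them was higher and 6 lower than on WTD, or 7 without the low-capture libraries.

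Stellate cell markers gave 6 higher calls of 10 with WTD, with sums of 404 to 686 CPM on chow, 1153 to 2639 on WTD and 1042 to 2488 with atorvastatin. Cholangiocyte markers gave 6 of 6, with sums of 78.6 to 156, 183 to 850.4 and 217 to 606 CPM. Endothelial markers gave 2 higher and 3 lower calls of 7, neutrophil markers 3 higher of the 3 tested out of 6, and lymphocyte markers 0 of 7 at sums of at most 52.9 CPM, with no marker of any of these lists at 0 in all mice of a group. Stellate markers gave 7 higher calls without the low-capture libraries, endothelial markers 3 higher and 3 lower, and neutrophil markers 2 higher of 4 tested. The part of these markers in the members' changes was not tested beyond the scaling that follows.

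Because the hepatocyte markers fell with WTD by about as much as several members, the whole table was fitted again with the libraries scaled to the geometric mean of the 12 hepatocyte markers in place of total mRNA. This choice was made after the data were seen, and it gives the median of all genes a log2 fold change of 0.88 for WTD against chow, -0.45 for atorvastatin against WTD and 0.45 for atorvastatin against chow (shifts of 0.85, -0.45 and 0.41 from the TMM scale), with 66.4%, 37.8% and 37.7% of all genes called. On this scale Ghr (log2 fold change -0.12, edgeR adjusted p = 0.13), Igf1 (0.06, edgeR adjusted p = 0.55) and Igfbp2 (-0.15, edgeR adjusted p = 0.31) did not pass between WTD and chow. Their approximate 95% intervals were -0.26 to 0.02, -0.12 to 0.24 and -0.40 to 0.11.

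Igfals (-0.65, SE 0.12, edgeR adjusted p = 6.9e-06) and Prlr (-0.48, SE 0.14, edgeR adjusted p = 0.0022) were still lower on WTD, below the geometric mean of the markers. On the TMM scale the log2 fold changes were -1.46 for Igfals and -1.27 for Prlr. Among the markers, Serpina1c (-1.65) fell more than both members, and Ttr (-1.29) fell more than Prlr but less than Igfals. The remaining markers fell less than both, with values from -1.19 to -0.26. Cish (1.48, SE 0.27, edgeR adjusted p = 7.2e-06), Socs2 (0.93), Stat5a (0.61), Stat5b (0.48) and Igfbp4 (0.29) were higher. Of these 5, Cish and Socs2 lay above the value of 0.88 shown by the median gene. Without the low-capture libraries Socs2 and Igfbp4 no longer passed (edgeR adjusted p = 0.011 and 0.017).

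For atorvastatin against WTD on the hepatocyte scale, Ghr was at 0.02 (edgeR adjusted p = 0.75, interval -0.10 to 0.15) and Igfals at 0.02 (edgeR adjusted p = 0.90). Prlr was at 0.34 (SE 0.13, edgeR adjusted p = 0.021) and passed without WTD replicate 15 (0.38, edgeR adjusted p = 0.0092). Stat5a (-0.49), Stat5b (-0.35), Igf1 (-0.32) and Igfbp4 (-0.25) were lower, each by less or about as much as the median gene. For atorvastatin against chow, Igfals (-0.63) and Igfbp2 (-0.42) were lower and Cish was higher (1.09). Ghr (-0.09, edgeR adjusted p = 0.29), Igf1 (-0.26, edgeR adjusted p = 0.015) and Igfbp4 (0.04, edgeR adjusted p = 0.74) did not pass, and without the low-capture libraries neither did Igfbp2 (-0.42, edgeR adjusted p = 0.027).

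**Figure D4:**
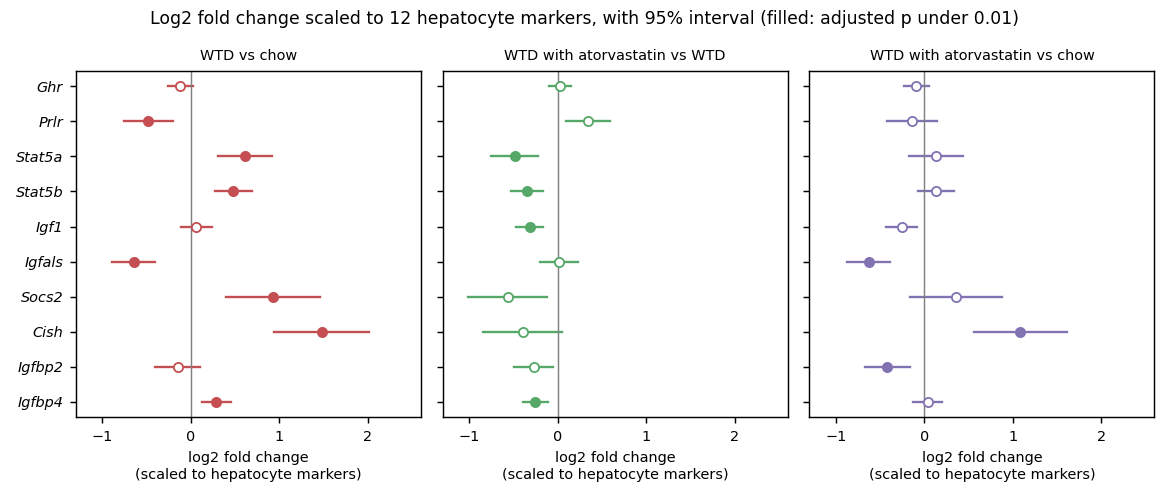
Log2 fold change of each member with libraries scaled to 12 hepatocyte markers, with approximate 95% intervals and filled points for an edgeR adjusted p under 0.01. Ghr and Igf1 lie near 0 for WTD against chow, while Igfals and Prlr lie below 0 and Cish lies highest at 1.48.

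Within groups, 6 pairs of members were compared across mice in each of 3 groups, and 1 of these 18 relations passed. Igfals and Socs2 rose together in atorvastatin-treated mice (n = 16, Pearson r = 0.83, permutation p = 0.00027, adjusted over the 18 relations 0.0049). Spearman's rho was 0.73 (permutation p = 0.0017, adjusted 0.031), and without the 2 mice farthest from the median of Igfals r was 0.75 (adjusted permutation p = 0.048). Without the low-capture libraries, which leaves 15 mice here, r was 0.84 (adjusted permutation p = 0.0029), while rho (0.71, adjusted permutation p = 0.071) and r without the 2 farthest mice (0.75, adjusted permutation p = 0.058) did not pass. The same pair gave r = 0.36 on chow and -0.16 on WTD, and the difference between groups was not tested. The pair Socs2 and Cish gave r = 0.61 with atorvastatin (n = 16, adjusted permutation p = 0.074). Pairs of Igf1 with Ghr, Igfals, Socs2 or Igfbp2 did not pass in any group.

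**Figure D5:**
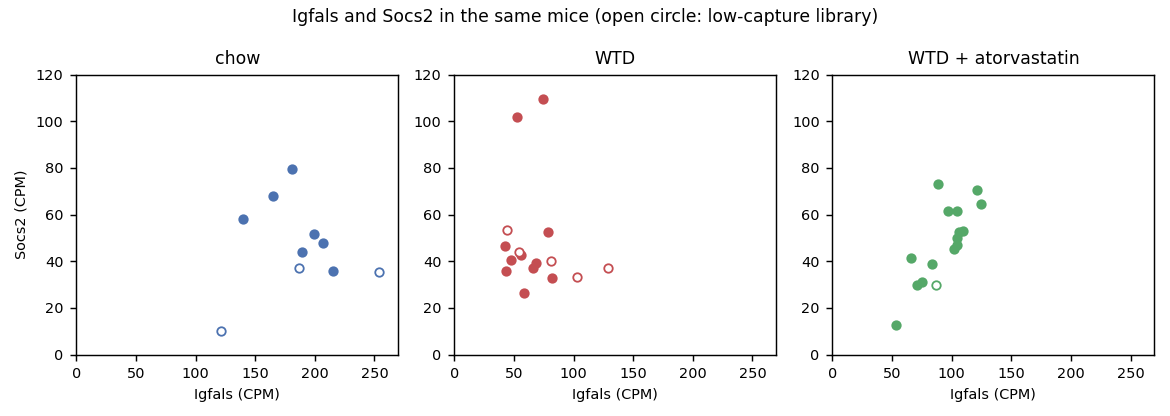
Socs2 against Igfals in each mouse (CPM), 1 panel per group. The 16 atorvastatin mice lie along a rising line, and the chow and WTD mice do not. Pearson r, computed on log2 CPM, was 0.83 with atorvastatin, 0.36 on chow and -0.16 on WTD.

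Over all 42 mice, after subtracting each group's mean, the pairs of members that varied most alike were Prlr with Igfals (r = 0.73), Igfals with Igfbp4 (0.67), Ghr with Igfbp2 (0.64), Ghr with Igfals (0.60) and Ghr with Prlr (0.59). Stat5a varied against Ghr (-0.46). Each point is 1 library, so both genes share its quality and its cell makeup, and these values are descriptions.

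By the same measure over 10788 genes, Ghr varied most like Rbp4 (r = 0.91), Apoh (0.89) and Slc27a5 (0.89), genes of plasma proteins and bile acid conjugation in hepatocytes. Prlr varied most like Cyp2c40 (0.85), Cyp2c69 (0.84) and the pseudogene Cyp2d37-ps (0.81). Igfals was nearest to Entpd8 (0.81), Dgat2 (0.79) and Chd3 (0.78). Igfbp2 was nearest to Apoa1 (0.82), Serpina1a (0.77) and Nat8f1 (0.77), and Igfbp4 to Pdk2 (0.80), Aqp9 (0.79) and Hpn (0.78). Igf1 was nearest to Gm10319 (0.73), Lifr (0.72) and Fkbp5 (0.66).

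The nearest genes of the remaining members were less alike. They were Ptpn9 (0.69), Fmo2 (0.64) and Ccdc141 (0.63) for Socs2, and AI838599 (0.62), Arid5b (0.60) and Gadd45g (0.59) for Cish. For Stat5b they were Dapk1, Gm43449 and Irs2 (each 0.65), and for Stat5a Armc9 (0.63), Oas1b (0.62) and Ddx28 (0.62).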

How the data were processed

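Liver RNA of 42 mice was sequenced by the authors from strand-specific poly(A) libraries. Per the labels and submitters' notes, read pairs were trimmed with Trimmomatic, aligned to GRCm38 with STAR 2.5 and counted per gene with HTSeq 0.6.1p1, and the deposited unit is the count, without normalization. All 42 single tables were identical to the merged table, 0 columns belonged to other samples, no libraries were duplicates, and summary lines were left out (in no gene 2.28%, ambiguous 5.95%, aligned to several places 4.68%). Symbols, positions and exon lengths came from GENCODE vM21, which held 54409 of 54446 identifiers. The total count limits the precision of low genes. Intervals give the uncertainty of a difference between groups, based on the spread between mice as modelled.

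Genes were kept by filterByExpr with a minimum count of 10 and a minimum total of 15, libraries were scaled by TMM, and edgeR 4.0.16 (R 4.3.3) gave the quasi-likelihood test with robust estimation, all 42 mice being in a model of 3 groups. P-values were adjusted by Benjamini-Hochberg over 15574 genes and called under 0.01, the study's threshold. The mice are separate animals, and no batch is given, though the label prefix separates chow from WTD-fed mice. Within-group relations used permutation tests, two-sided, with 100000 permutations of log2 CPM (prior count 2).

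The members and gene lists were chosen with earlier results of these data known. Named were all 10 members, the 3 genes with the smallest p per list and comparison in the 4 pathway and sex lists, Jak2, Irs1, Irs2 and Serpina1c (added after their values were seen), the first genes of the hepatocyte and macrophage lists, and the 3 genes most like each member (mean of at least 5 CPM).

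Alternatives were DESeq2 1.42.0, limma-voom (limma 3.58.1) with quality weights, RLE and upper-quartile scaling, no filter, no robust estimation, fits of only the groups compared, leaving out the 20 most abundant genes, a threshold of 0.05 on the adjusted p, leaving out the low-capture libraries, their missed share as a covariate, and leaving out each mouse. Chosen after seeing the data were the hepatocyte scaling, list counts without the low-capture libraries and relations with macrophage markers. The main test was tested on simulated WTD and chow counts for 15574 genes: it called 121 of 200 genes given a log2 change of 1, all among the 137 with at least 5 CPM, and 0 unchanged genes. The simulation changed far fewer genes than were called here (33.5% for WTD against chow) and did not model low-capture libraries. It thus does not give the error rate in these data. Promoter windows came from RefSeq. Tables and plots were made with matplotlib 3.10.9, scipy 1.17.1, pandas 2.3.3 and numpy 2.4.6 under Python 3.11.15. Plasma, histology and protein data were not analysed here.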

Additional observations from a re-analysis of the deposited data

Results flagged for a closer look

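The chow group alone was small enough for the test of a far value, with gaps and ranges measured on log2 CPM. Among the 10 members, 2 had a chow mouse whose gap to its neighbour was over 0.466 of the group's range on that scale. Chow replicate 2 had 44.5 CPM of Stat5a (gap 0.474 of the range), the highest in its group. Chow replicate 5 had 9.96 CPM of Socs2 (gap 0.608), the lowest. Both libraries are among the 9 low-capture ones, with 57.3% and 43.1% of weakly expressed genes at 0. Chance gives about 1 such value in 20 groups, and the part of library quality was not tested.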

How the results depend on the processing

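No paired analysis was possible because each mouse is a separate animal with 1 library in 1 group. WTD against chow gave 7 members with each alternative other than leaving out a mouse. In these alternatives 22.1% (DESeq2) to 43.9% (adjusted p under 0.05) of all genes were called. The comparison gave 7 to 8 members when 1 mouse was left out, 8 being without chow replicate 10. Atorvastatin against WTD gave 2 members, but 5 with limma-voom (20.2% of all genes called) and 4 without the low-capture libraries (10.5%). There were 3 with DESeq2 (5.23%), no robust estimation (7.17%), the missed share as a covariate (6.31%) or an adjusted p under 0.05 (13%). When 1 mouse was left out there were 2 to 4, 4 being without WTD replicate 15. Igf1 was the member that passed there with limma-voom only (0.27, adjusted p = 0.00061). Atorvastatin against chow gave 5, but 9 at an adjusted p under 0.05 (34.6% of all genes called) and 7 with limma-voom (31.9%). It gave 6 with upper-quartile scaling (25.6%) or only the groups compared (26.4%), and 5 to 6 when 1 mouse was left out. The cause was not tested.

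Signs turned for values near 0. Socs2 turned for WTD against chow with limma-voom (-0.086) and without the low-capture libraries (-0.10), for atorvastatin against WTD with limma-voom (0.12), and for atorvastatin against chow without the low-capture libraries (-0.17) and with the missed share as a covariate (-0.16). Leaving out 1 mouse gave -0.082 to 0.16, -0.069 to 0.11 and -0.092 to 0.15 in these comparisons. Cish for atorvastatin against WTD was -0.080 with the covariate.

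Without the 2 farthest mice r turned to -0.070 on chow and -0.075 on WTD for Igf1 with Socs2, to -0.23 on chow for Igf1 with Ghr, to -0.12 on chow and -0.023 on WTD for Igf1 with Igfbp2, and to -0.53 on chow and 0.013 on WTD for Igfals with Socs2. Without the low-capture libraries it turned to -0.012 on chow for Igf1 with Socs2, -0.25 on chow and -0.23 on WTD for Igf1 with Ghr, -0.15 on chow for Igf1 with Igfbp2, and -0.58 on chow and 0.095 on WTD for Igfals with Socs2. The relation of Igfals with Socs2 in atorvastatin mice kept its sign in both settings.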

Other observations

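Across atorvastatin-treated mice, Ghr was lower where the summed level of the 12 macrophage markers was higher (n = 16, Pearson r = -0.78, permutation p = 0.0003, adjusted over 12 relations of 4 members in 3 groups 0.0036). Spearman's rho was -0.71 (adjusted permutation p = 0.034), and r without the 2 mice farthest from the median was -0.72 (adjusted permutation p = 0.017). The same pair gave r = -0.22 on chow and -0.50 on WTD, and the remaining 11 relations did not pass by Pearson's r over all mice. Prlr in atorvastatin-treated mice went from r = -0.40 (adjusted permutation p = 0.19) to -0.74 (adjusted permutation p = 0.017) without the 2 mice farthest from the median. These relations were chosen after the data were seen.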
